A study of Mus musculus with 2 samples.

Results

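Accessible chromatin far from any transcription start, but still within reach of a coding gene, was examined in the hippocampus of young mice. The regions were those of the shorter region list of replicate 1 that overlapped a region of the shorter list of replicate 2 by at least 1 bp on chromosomes 1 to 19. Their midpoint lay outside all protein-coding gene bodies, more than 10 kb from every transcript start of any gene and at most 100 kb from the nearest coding start. Of 46876 regions shared on these chromosomes, 5519 met these conditions, which is 11.8%. Position and presence in both libraries chose them, so neither is a finding.

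The data came from DNase-seq, in which DNase I cuts DNA that nucleosomes leave exposed. Both libraries were made from tissue that the labels call a layer of hippocampus, taken from male B6CASTF1/J mice aged 10 days, the first-generation hybrids of C57BL/6J and CAST/EiJ. There was 1 group of 2 biological replicates with no treatment and no second genotype, and the labels describe each tissue sample as 3 males. Both carry the same donor label. The authors deposited accessible regions with a height, footprints, which are short stretches protected from cutting, and a false discovery rate for the rate of cuts at single bases. The sources used here give no read depth, so exact binomial intervals below cover counting of regions only. With 2 libraries a sign permutation test cannot give a p below 0.5, and none was run; the spread between libraries is that of these tissue samples alone.

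Distal accessible regions include enhancers, which bind sequence-specific factors and raise transcription of genes that can lie many kilobases away, and sites of CTCF, a zinc finger protein that stops loop extrusion by cohesin and sets the borders of chromatin domains. In hippocampal neurons, distal enhancers are known to bind factors of the basic helix-loop-helix, nuclear factor I (NFI) and activity-regulated families. The gene nearest to such a region is not always the gene it regulates, so gene names below give positions only.

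Of the 29 patterns searched, that of CTCF was found in the largest share of these regions, so its matches in 6 of the 7 best-ranked regions that hold one are shown first. The other of the 7, near Cystm1, is not shown. Each line gives 30 bases of the strand that carries the pattern, from the RefSeq assembly GRCm38 (mm10), with the 12 matched bases in capitals. The pattern is CCA, AG and GGC, each separated by any 2 bases.
Near Nanog, chr6:122669535-122669564, plus strand: gacagtccaCCAACAGGGGGCgttatttcc
Near Ccne1, chr7:38085024-38085053, plus strand: gcgaggaagCCACGAGGAGGCccaaagtcc
Near Nfix, chr8:84811013-84811042, minus strand: aggactgggCCAGAAGGGGGCgcccgatct
Near Mcph1, chr8:18564833-18564862, minus strand: tgaacctggCCACTAGGTGGCgctgctatg
Near Bcl9, chr3:97338995-97339024, minus strand: caccatacaCCACTAGAGGGCtgcagagac
Near Coro2b, chr9:62550004-62550033, minus strand: aagatatgtCCACCAGAGGGCgcaccggcc

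The match near Nanog, a pluripotency factor gene, lay in a region of height 7.94 in replicate 1 and 9.07 in replicate 2. The region near Ccne1, the cyclin E1 gene, had heights of 6.59 and 7.60, and its match was the only one of the 6 that no footprint touched in either library. The other matches were under a footprint in both libraries. Heights were 5.83 and 8.82 near Nfix, an NFI family gene, and 5.13 and 7.19 near Mcph1, the microcephalin gene. They were 5.34 and 6.69 near Bcl9, a cofactor of beta-catenin, and 5.03 and 7.40 near Coro2b, which encodes an actin-binding coronin. All 6 were higher in replicate 2 than in replicate 1. So were most regions with a match, whose log2 ratio (replicate 2 over replicate 1) had a lower quartile of 0.21.

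A further 3 windows of 200 bp, plus strand, show other kinds of sequence. The first is the best-ranked region with an RFX site, bound by winged-helix factors (GTT, any base, CC, any 2 bases, GG, any base, AAC). The second is the best-ranked one with a full NFI palindrome (TTGGC, any 5 bases, GCCAA). Matches are in capitals. The third is the best-ranked region with none of the patterns, and has no capitals. Its window does hold AG and GGC spaced as in the CTCF pattern, without the CCA before them.
Near Tob1, chr11:94160541-94160740: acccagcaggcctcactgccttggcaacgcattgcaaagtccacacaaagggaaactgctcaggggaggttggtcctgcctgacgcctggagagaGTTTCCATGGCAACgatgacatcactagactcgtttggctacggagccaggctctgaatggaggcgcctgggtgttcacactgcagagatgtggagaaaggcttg
Near Wnt7b, chr15:85613941-85614140: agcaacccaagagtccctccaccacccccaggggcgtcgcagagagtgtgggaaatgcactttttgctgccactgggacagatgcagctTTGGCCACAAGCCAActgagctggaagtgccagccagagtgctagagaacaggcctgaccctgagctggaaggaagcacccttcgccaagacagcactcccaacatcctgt
Near Zfp239, chr6:117879481-117879680: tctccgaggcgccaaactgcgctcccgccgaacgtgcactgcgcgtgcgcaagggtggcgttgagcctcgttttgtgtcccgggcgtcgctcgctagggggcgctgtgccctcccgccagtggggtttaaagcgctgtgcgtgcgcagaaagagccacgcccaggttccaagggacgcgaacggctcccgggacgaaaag

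The region near Tob1, an antiproliferative factor gene, had heights of 4.45 in replicate 1 and 4.32 in replicate 2. That near Wnt7b, a Wnt ligand gene, had 2.05 and 2.28. That near Zfp239, a zinc finger gene, had 8.36 and 10.5, with a GC content of 67.5% over its window. RFX matches occurred in 23 of the 5519 regions (0.417%, against 0.553% of all shared regions). Full NFI sites occurred in 6 (0.109%, against 0.109%), so these windows are single examples.

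The overlap between libraries was near that of all regions. Replicate 1 had 6210 regions at such positions, of which 5519 (88.9%) overlapped a region of replicate 2, against 88.4% of all regions of its list. Replicate 2 had 8711, of which 5498 (63.1%) overlapped one of replicate 1, against 64.3%. The 691 unshared regions of replicate 1 had a median height of 0.572 against 1.08 for the shared ones, and 459 of them (66.4%) lay in the longer, more permissive list of replicate 2. For replicate 2 the medians were 0.568 for 3213 unshared regions and 1.32 for shared ones, and 1804 unshared regions (56.1%) lay in the longer list of replicate 1.

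Heights of the shared regions ran from 0.101 to 21.1 in replicate 1, with a median of 1.08 and quartiles of 0.742 and 1.64. In replicate 2 they ran from 0.120 to 31.2, with a median of 1.32 and quartiles of 0.863 and 2.20. The mean of the medians was 1.20 ± 0.166 (SD, n = 2). The libraries differed by a median log2 ratio of 0.31 (replicate 2 over replicate 1), close to the 0.33 over all shared regions. After that offset, 40 regions (0.725%) differed by more than 2-fold, against 0.849% of all shared regions. Across the 5519 regions, log2 heights had a Pearson correlation of 0.921 and heights a Spearman correlation of 0.910, as a description of regions measured in the same libraries. Of the 551 highest regions of replicate 1, 432 (78.4%) were also among the 551 highest of replicate 2.

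**Figure D1:**
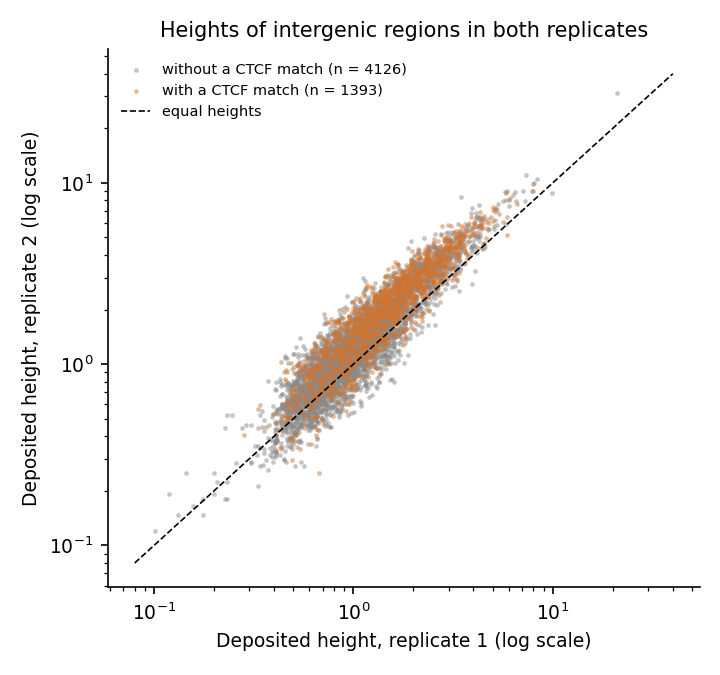
Deposited height of each of the 5519 intergenic regions in replicate 1 (x axis) and replicate 2 (y axis), both on log scales without units; 1 point is 1 region and the dashed line marks equal heights. Most points lie above the line (median log2 ratio 0.31), and regions with a CTCF match (n = 1393) sit toward the upper right.

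Of the highest regions, many were CpG-rich or held a CTCF match. The 10 with the best mean rank over both libraries began with a region near Igf2bp3, an mRNA-binding protein gene, at chr6:49236421-49236620 with heights of 21.1 and 31.2. Its height is uncertain, because 77.5% of its 32-base words also occur elsewhere in the assembly. It was followed by the region near Zfp239 shown above. The region near Ptma, the prothymosin alpha gene, had 8.03 and 9.96, that near the keratin gene Krt78 had 7.33 and 11.1, and that near the forkhead gene Foxk1 had 7.96 and 9.86. After the Nanog region came one near Ezh2, the Polycomb methyltransferase gene, with 7.87 and 8.99, and one near the receptor gene Lrp3 with 9.96 and 8.80, the only one of the 10 that was lower in replicate 2. Of the words of these regions, 31.6% and 23.3% occur elsewhere. The last of the 10 lay near Irf2bp2, a corepressor gene (7.09 and 8.97), and Crebl2 (6.48 and 8.87).

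Of these 10, 6 were CpG-rich, defined as a GC content of at least 50% and a ratio of observed to expected CG pairs of at least 0.6 over 200 bp. Among all 5519 regions 381 (6.90%) were CpG-rich, against 33.6% of all shared regions, where 13827 of the 15728 CpG-rich ones were at promoters. These limits were chosen after values were seen. CpG-rich intergenic regions had median heights of 1.48 and 1.97 in replicates 1 and 2, and the others 1.06 and 1.28. They were 32 of the 100 best-ranked regions and 5 of the 100 lowest, against 36 and 7 for regions with a CTCF match. More bases with a raised cut rate were listed around CpG-rich regions, counted whether or not they formed 1 stretch. Within 1000 bp on either side of the midpoint, a median of 559 and 777 bases were listed at a false discovery rate of up to 0.05, against 313 and 404 at the others.

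The regions covered a narrow size range, from 22 to 940 bp, with a median of 180 bp and quartiles of 144 and 200 bp. Repeats were uncommon: in 124 regions (2.25%) over 50% of the 200 bp window was masked as repeat in the assembly, against 1.62% of all shared regions. The share was 4.67% of intergenic regions with a CTCF match and 1.43% of those without. In 56 regions (1.01%) over 50% of the 32-base words occur elsewhere in the assembly, and 5132 held no such word. Bodies of noncoding genes, which the rule did not exclude, held 376 regions (6.81%), against 10.5% of all shared regions.

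Density fell with distance from coding genes. The territory that the rule allows was 374 Mb, 15.6% of the sequenced bases of chromosomes 1 to 19, and held 14.8 shared regions per Mb. Gene deserts, which lie over 100 kb from a coding start, held 5.18 per Mb over 600 Mb. Deep introns, more than 10 kb from any start, held 11.4 per Mb, and positions 1 to 10 kb from a start held 15.9. Within the territory the density went from 18.04 per Mb at 10 to 20 kb to 13.4 at 40 to 50 kb and 10.9 at 90 to 100 kb. The median distance was 31975 bp, with quartiles of 18764 and 54480 bp. The count depends on the list used: the longer lists gave 9777 regions (26.1 per Mb), the stronger 50% of each list 2622 (7.01 per Mb), and replicate 2 without the overlap 8711 (23.3 per Mb). By chromosome, chromosome 11 had the highest density (23.4 per Mb) and chromosome 3 the lowest (10.6).

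Slightly more regions lay upstream of the nearest coding start than beyond its gene. Of 5519, 3138 (56.9%) were on the upstream side. The allowed territory itself lay upstream for 61.6% of points taken every 1000 bp, so the share of regions was below that of the territory. Upstream regions had median heights of 1.04 and 1.24 and downstream ones 1.13 and 1.41. A CTCF match was found in 24.9% of upstream and 25.7% of downstream regions.

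Intergenic regions held a CTCF match more often than deep intronic and desert regions. The pattern, searched on both strands of 200 bp around the midpoint, occurred in 1393 of 5519 regions (25.2%, 95% exact interval 24.1 to 26.4%), against 15.3% of all shared regions. The share was 24.7% (23.9 to 25.5%) at 1 to 10 kb from a start, 19.9% (18.8 to 20.9%) in deep introns, 13.8% (12.6 to 15.1%) in gene deserts and 5.71% at promoters. Intervals of the intergenic regions and of those at 1 to 10 kb overlapped, whereas those of deep introns and deserts lay below. With all regions of 1 library in place of the shared ones, the share was 23.0% in replicate 1 and 19.3% in replicate 2, still the highest of the 4 distal classes in each library. The values for deserts were then 12.2% and 9.82%. A stricter pattern gave 13.0% for the intergenic class and 6.15% for deserts. A looser one gave 32.1% and 18.5%, so some regions counted as without a match hold a similar sequence.

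**Figure D2:**
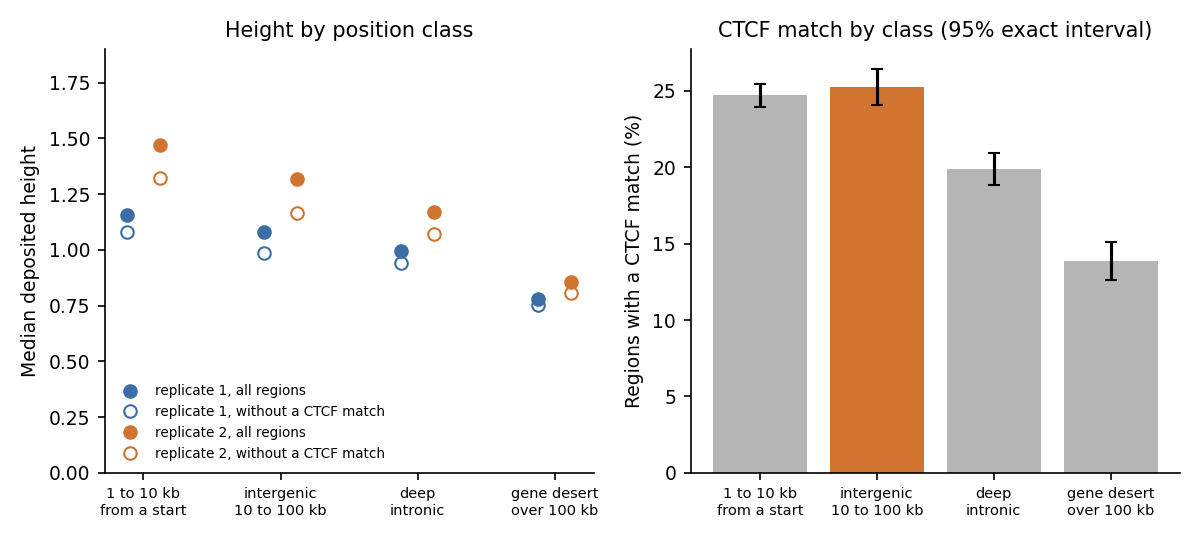
Left, median deposited height (no unit) of shared regions in 4 position classes, by replicate, for all regions (filled) and those without a CTCF match (open); right, percent of regions with a CTCF match with 95% exact binomial intervals. Heights of intergenic regions (1.08 and 1.32) lie between those at 1 to 10 kb and in deep introns, and deserts are lowest in both panels.

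Within the intergenic class, regions with a CTCF match were fewer at larger distances. At 10 to 20 kb from the coding start 459 of 1517 regions held a match (30.3%, 27.95 to 32.6%), at 40 to 50 kb 19.9% (16.6 to 23.6%), and at 90 to 100 kb 32 of 247 (13.0%, 9.03 to 17.8%). Per Mb of territory, regions with a match went from 5.46 in the nearest bin to 1.41 in the farthest, and those without from 12.6 to 9.45. The intermediate bins were not in strict order, with 23.7% at 60 to 70 kb. A looser and a stricter pattern gave 37.2% and 16.4% in the nearest bin and 18.2% and 6.88% in the farthest. With the regions of replicate 1 or replicate 2 on its own, the nearest and farthest bins had 28.04% and 11.7%, and 25.1% and 9.71%.

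**Figure D3:**
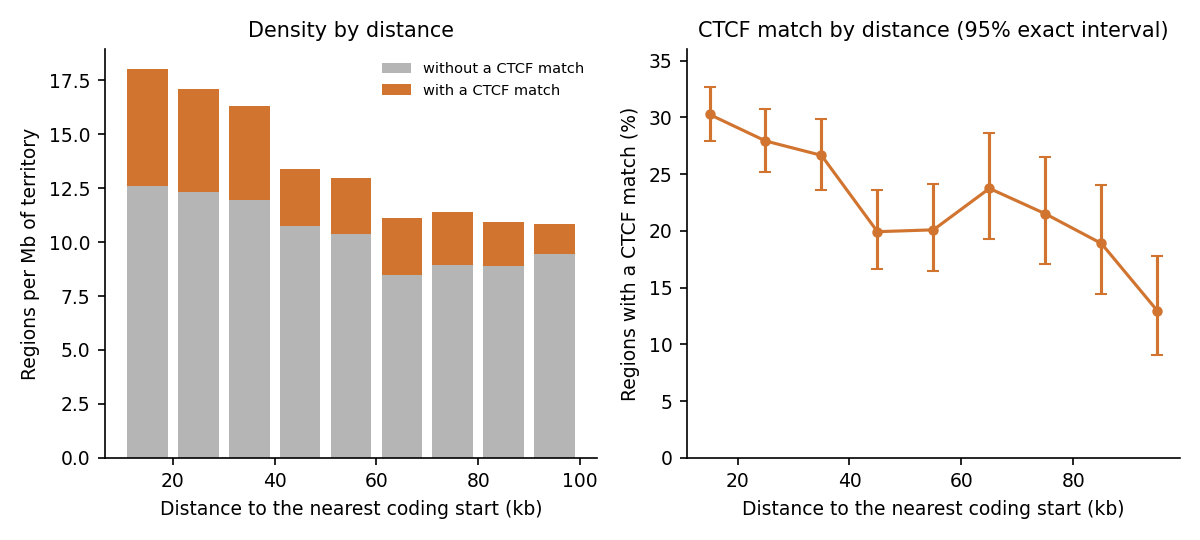
Left, intergenic regions per Mb of allowed territory by distance to the nearest coding start in bins of 10 kb, stacked by CTCF match; right, percent with a CTCF match per bin with 95% exact binomial intervals. Density goes from 18.04 to 10.9 per Mb and the CTCF share from 30.3% to 13.0%.

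Regions with a CTCF match were higher than the rest in both libraries. Their median heights were 1.41 in replicate 1 and 1.94 in replicate 2, against 0.987 and 1.16 for the 4126 regions without a match. The share with a match was 11.98% in the lowest 10% of regions and 40.04% in the highest 10% in replicate 1, and 10.2% and 42.8% in replicate 2. The height difference between libraries was also larger with a match, at a median log2 ratio of 0.46 (quartiles 0.21 and 0.65) against 0.26 (0.00 and 0.50). The part of read depth or library in that gap was not tested.

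The order of the classes by height was the same without regions that hold a CTCF match. In replicate 1 the medians were then 1.08 at 1 to 10 kb from a start, 0.987 in the intergenic class, 0.940 in deep introns and 0.754 in deserts. In replicate 2 they were 1.32, 1.16, 1.07 and 0.808. Within the intergenic class, medians of regions without a match went from 1.14 and 1.40 at 10 to 20 kb to 0.792 and 0.934 at 90 to 100 kb.

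The matches sat at the centre of the regions. The median distance of a CTCF match from the midpoint was 9 bp, and 83.5% of 1415 matches lay within 25 bp, where evenly spread matches would be 26.5%. In the central 80 bp there were 59.4 matches per 1000 regions in each 20 bp step, against 1.83 between 500 and 1000 bp away. The single NFI site (TGCCAA, the palindrome arm GCCAA preceded by T) had 32.9 against 10.7. The E-box of NEUROD-type factors (CAGATGG) had 19.4 against 5.03. Of 1373 regions with a single CTCF match, the pattern pointed to the nearest coding start in 617 (44.9%, 42.3 to 47.6%) and away from it in the others.

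**Figure D4:**
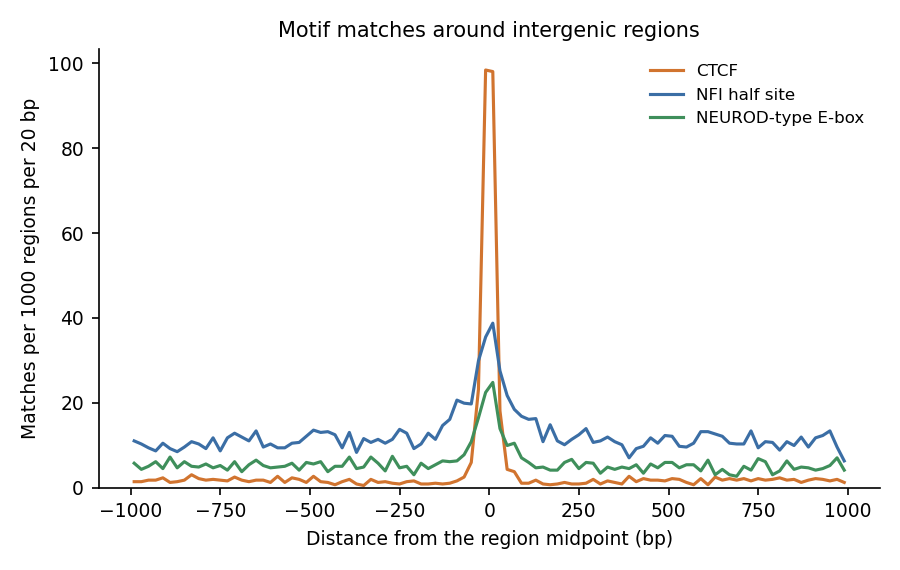
Matches per 1000 intergenic regions in steps of 20 bp (y axis) against distance from the region midpoint in bp (x axis), for CTCF, the single NFI site and the NEUROD-type E-box. All 3 peak at the midpoint, CTCF at 98.4 and 98.0 in the central steps, and are flat beyond 500 bp.

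Footprints were found in nearly every intergenic region. A footprint of replicate 1 overlapped 5344 regions (96.8%, 96.3 to 97.3%), against 93.4% of all shared regions. A footprint of replicate 2 overlapped 5367 (97.2%, 96.8 to 97.7%), against 94.2%. The mean share was 97.0% ± 0.295 (SD, n = 2). Footprints that were present in both libraries lay in 4991 regions (90.4%), against 85.1% of all shared regions. Deserts had 93.8% and 95.2% in the 2 libraries, and deep introns 96.3% and 97.5%. Intergenic regions held a mean of 2.68 footprints in replicate 1 and 3.02 in replicate 2, and at most 14 and 17.

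CTCF matches were almost always under a footprint. Of 1415 CTCF matches, 1350 (95.4%) touched a footprint in replicate 1 and 1361 (96.2%) in replicate 2. Any position of that length within the same windows did so in 35.0% and 41.0% of cases. That level averages over the whole window, whereas the matches lay mostly near the midpoint. The part of position in this difference was not tested. The footprints over a match had a median width of 30 and 31 bp, against 11 bp in each library for footprints of regions without a match. A share of 85.2% and 90.7% of the matches lay under a footprint of at least 20 bp. Of regions without a match, 52.2% and 60.6% held a footprint of at least 20 bp. A wide footprint is also more likely to touch a match, so the median widths above are not compared like for like.

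Among the patterns of neuronal factors, single NFI sites were under a footprint in 45.9% and 50.5% of 1352 matches, against 27.6% and 32.7% for any position of that length. The NEUROD-type E-box, bound by drivers of excitatory neuron fate, had 47.2% and 51.8% of 709 matches, against 28.8% and 34.1%. The E-box CAGGTG, which E proteins and zinc finger repressors bind, had 48.8% and 52.8% of 1041 matches, and the ASCL-type E-box CAGCTG 33.0% and 37.5% of 1126. For both, any position of that length had 27.6% and 32.7%. Patterns of activity-regulated factors differed from each other. AP-1 (TGANTCA), in 352 regions (6.38%, against 4.64% of all shared regions), had 22.1% and 31.1% of 367 matches under a footprint, below the 28.8% and 34.1% for any position. MEF2, in 85 regions (1.54%, against 1.15%), had 18.6% and 32.6% of 86, below 32.6% and 38.3%. SRF, in 60 regions (1.09%, against 0.849%), had 36.1% and 45.9% of 61 matches, above 32.6% and 38.3%. The CRE (TGACGTCA) was in 28 regions (0.507%, below the 1.32% of all shared regions). It had 19 of 28 matches (67.9%) under a footprint in each library, against 30.1% and 35.5% for any position. EGR (GCGTGGGCG) was in 8 regions (0.145%, below 0.457%) and had 8 of 8 in each, against 31.3% and 36.9%. The homeodomain core TAATTA lay below the level of any position, at 17.8% and 24.7% of 247 matches against 27.6% and 32.7%. YY1 (AAGATGGCG), in 28 regions (0.507%, against 1.03%), had 25 of 28 matches under a footprint in each library, against 31.3% and 36.9%. The level for any position takes no account of where in the window matches lie. Median distances from the midpoint were 36 bp for single NFI sites and 29.5 bp for NEUROD-type E-boxes. They were 50.5 bp for AP-1, 50 bp for SRF and 62 bp for MEF2 and the homeodomain core. The part of position in these contrasts was not tested.

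The shares of regions with these patterns also varied by position. Single NFI sites were in 20.6% of intergenic regions, 26.3% of deep intronic and 28.04% of desert regions, against 16.2% of all shared regions. The NEUROD-type E-box was in 12.1%, 14.0% and 16.4%, against 8.29%, and the homeodomain core in 4.22%, 4.48% and 5.28%, against 2.57%. The ASCL-type E-box was in 18.2% of intergenic regions (16.7% of all shared regions) and CAGGTG in 17.0% (14.4%). Patterns typical of promoters were rare: GGGGCGGGG, bound by SP and KLF factors, was in 1.54% of intergenic regions against 6.61% of all shared regions, and the ETS pattern CCGGAAG in 1.504% against 5.43%. Single NFI sites went from 17.3% at 10 to 20 kb to 25.5% at 90 to 100 kb, opposite to CTCF, and the NEUROD-type E-box stayed between 11.1% and 13.8% in all bins. Each pattern was searched on its own on both strands, so a base can belong to more than 1 match.

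The raised cut rate reached less far around CTCF matches. Within 1000 bp on either side, regions with a match had a median of 296 and 341 listed bases in replicates 1 and 2, and those without 340 and 452. At 200 bp upstream of the midpoint by coordinate, the base was listed in 11.1% and 23.9% of regions with a match and in 25.8% and 42.2% of those without. At 500 bp the values were 3.45% and 6.60%, against 8.43% and 14.0%. The median region width was 180 bp with a match and 181 bp without.

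**Figure D5:**
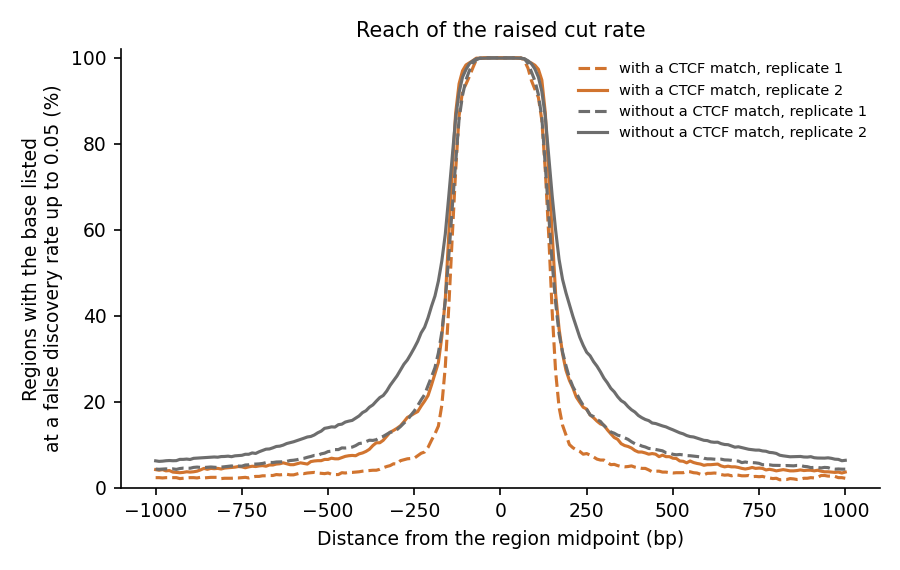
Percent of intergenic regions whose base at a given distance from the midpoint (x axis, bp) is listed at a false discovery rate of up to 0.05, for regions with and without a CTCF match in each replicate. At 200 bp to the left the curves with a match stand at 11.1% and 23.9% and those without at 25.8% and 42.2%.

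The nearest coding genes of these regions had open promoters more often than other genes. The regions had 3339 different nearest coding genes, 16.0% of the 20807 on these chromosomes, and 2028 of these genes had a single region. A shared region lay within 1 kb of a start at 2306 of the 3339 genes (69.1%, 67.5 to 70.6%), against 60.4% of all coding genes and 58.7% of the 17468 others. Genes with 5 or more intergenic regions had 56 of 77 open (72.7%) and those with 1 had 68.3%. With the stronger 50% of each list the share was 58.4%, against 52.0% of all coding genes in the same lists. When the nearest gene could be of any type, it was 41.0%, against 31.4% of 51229 genes of any type. The values for the nearest genes of the other distal classes were higher, at 71.6% for regions 1 to 10 kb from a start, 78.2% for deep intronic and 74.4% for desert regions. The nearest annotated start was that of a noncoding gene or pseudogene for 2653 regions (48.1%).

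Single genes gathered up to 14 of these regions. Calcoco1, a coactivator and autophagy receptor gene, was nearest to 14, with heights of 0.836 to 3.85 in replicate 1 and 1.17 to 5.11 in replicate 2, all between 11.2 and 85.4 kb from its start. Ezh2 was nearest to 12, Cstad to 11 and Nnmt, which methylates nicotinamide, to 10. Wnt7b and Zfp706 had 9 each, and Adcyap1r1, the receptor of the neuropeptide PACAP, and Foxo6, a forkhead factor gene, 8 each. Irf2bp2, Klhl25, Ppp1r26 and Trim27 followed with 7 each. Of these 12 genes, Nnmt and Ppp1r26 had no promoter region shared by both libraries.

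All 9 regions nearest to Wnt7b lay upstream, from 16.6 to 52.3 kb from its start. The farthest, chr15:85634661-85634880, was the highest with 5.79 and 5.93. Next was chr15:85610641-85611040 with 2.44 and 2.91, followed by the nearest one, chr15:85598993-85599124, with 2.17 and 2.69. The one with the lowest mean rank of height, chr15:85611837-85612006, had 1.26 and 1.11. A CTCF match was in 2 of the 9.

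Of the 5519 regions, 2131 (38.6%) had another one within 10 kb, against 36.7%, 30.6% and 25.2% for the same measure at 1 to 10 kb, in deep introns and in deserts. Chained at 10 kb, they formed 677 pairs, 156 triples and 67 chains of 4 or more. The chains of 4 or more held 309 regions, with median heights of 1.26 and 1.60 and a CTCF match in 20.4%. The 3388 single regions had 1.04 and 1.25 and a match in 26.9%. Some neighbours are parts of 1 accessible stretch: 286 regions (5.18%) had an edge within 200 bp of another.

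The chains with most regions were of different kinds. The first, on chromosome 6 from 47648021 to 47653180 near Ezh2, held 11 regions in 5.16 kb, with heights of 0.308 to 7.87 in replicate 1 and 0.306 to 8.99 in replicate 2 but medians of only 0.409 and 0.448. The second, on chromosome 15 from 102733301 to 102762078 near Calcoco1, held 9 in 28.8 kb with medians of 1.21 and 1.82. A chain of 7 near Nnmt spanned 3.63 kb on chromosome 9 with medians of 0.333 and 0.524. Chains of 6 lay near Smug1 and Cbx5, near Cystm1 and Igip, near B4galt5 and near Mc3r. That near B4galt5 spanned 3.06 kb and none of its regions was above 0.327 and 0.464. Those near Ezh2, Nnmt and B4galt5 held no CTCF match and had the lowest medians of these 7 chains.

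Some genes of neurons, glia and activity response had intergenic regions of this kind nearest to them. Of 14 gene lists, 11 had a larger share of genes with at least 1 region than the 16.0% of all coding genes, and the microglial (1 of 9), hepatocyte (1 of 8) and muscle (0 of 8) lists a smaller one. The median number of regions per gene was 0 in 9 lists, 1 in 4 and 2 in the oligodendrocyte list, against 0 over all coding genes. The lists held 4 to 16 genes each, so 1 gene moves a share by much. The tissue label was checked on promoters, which were open at 60.4% of all coding genes: all 9 pan-neuronal genes and 9 of 10 glutamatergic genes were open in both libraries, with 7 of 10 astrocyte, 4 of 8 oligodendrocyte, 3 of 12 interneuron, 1 of 8 endothelial, 0 of 9 microglial, 0 of 8 hepatocyte and 2 of 8 muscle genes.

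Among immediate early genes, which neurons switch on within minutes of activity, 6 of 16 had regions, 12 in all. Fos, the AP-1 subunit gene, had 5 between 11.3 and 22.0 kb from its start. The highest lay upstream at chr12:85455261-85455600 with 4.71 and 5.52. Downstream lay chr12:85486121-85486320 with 2.88 and 4.78, chr12:85487821-85488140 with 1.60 and 1.66, chr12:85492221-85492380 with 2.02 and 2.16, and chr12:85496856-85496995 with 1.06 and 1.88. All 5 were higher in replicate 2, as were most intergenic regions (lower quartile of the log2 ratio 0.042). The last 3 of the 5 held a CTCF match. Egr1, a zinc finger factor of the same class, had 3, with heights of 0.779 to 2.29 and 0.912 to 3.36.

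Astrocyte genes had 13 regions at 6 of 10 genes. Slc1a3, the glutamate transporter GLAST, had 5 between 13.8 and 70.7 kb although its promoter was not open in both libraries. The highest, chr15:8629301-8629520, had 2.16 and 2.59, and the region at chr15:8781261-8781600 upstream had 1.15 and 0.918. Fgfr3, a growth factor receptor gene of astrocytes, also lacked a shared promoter region and had 3 upstream with nearly equal heights, from 1.34 to 1.48 and from 1.39 to 1.74. Sox9, a glial factor gene, had 2.

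Oligodendrocyte lineage genes had 12 regions at 5 of 8 genes. Olig1 and Olig2, neighbouring factor genes of that lineage, had 3 and 2, at 34.6 to 44.6 kb and 33.4 to 34.0 kb. Mbp, the myelin basic protein gene, had 3, with heights of 1.01 to 1.37 and 1.55 to 1.96.

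Interneuron genes had 6 regions at 3 of 12 genes, of which 4 were nearest to Dlx2, an inhibitory lineage factor with no shared promoter region. They lay 34.4 to 82.7 kb upstream and the highest, chr2:71598921-71599120, had 2.72 and 3.58. Endothelial genes had 5 regions at 3 of 8 genes. Of these, 3 were nearest to Cdh5, the endothelial cadherin gene, also with no shared promoter region. They lay 50.5 to 73.9 kb upstream, with heights of 0.930 to 2.18 and 1.33 to 3.21. In tissue made of many cell types, a height does not tell fewer cells of a type from weaker opening in each.

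Among neuronal genes, Neurod2 and Neurod6, basic helix-loop-helix factors of pyramidal neurons, had 3 regions each. Those of Neurod2 lay 10.3 to 15.7 kb downstream of its start with heights of 0.402 to 1.24 and 0.732 to 1.72. Those of Neurod6 lay 36.1 to 74.5 kb away, from 0.446 to 1.43 and from 0.448 to 1.84. Of 9 pan-neuronal genes, 5 had 7 regions. Elavl4, a neuronal RNA-binding protein gene, had 3 of them, the highest 94.0 kb downstream with 2.20 and 3.55. Of 14 factor genes of hippocampal subfields, 8 had 10 regions, among them Prox1, which marks dentate granule cells, with 2, and Meis2 with 2, both of which held a CTCF match. E proteins and their ID inhibitors had 6 regions at 4 of 7 genes, of which Id4, an inhibitor of helix-loop-helix factors, had 3. The NFI family had 1 region at 1 of 4 genes.

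At the edges of the class, heights inside and outside overlapped. The 5 regions just inside 10 kb, from 10003 to 10009 bp from a start, had heights of 0.798 to 3.17 in replicate 1 and 0.737 to 3.71 in replicate 2. The 5 just outside, from 9976 to 9996 bp, had 1.12 to 2.21 and 1.39 to 3.26. The 5 just inside 100 kb had 0.698 to 2.29 and 0.666 to 3.72, and the 5 just outside 0.553 to 1.32 and 0.563 to 2.55.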

How the data were processed

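The data were DNase-seq region lists, footprints and cut rate statistics of 2 libraries on mm10, per the labels. The deposited height is a signal in narrowPeak files; the sources used here name no scaling, caller or threshold. The deposited false discovery rates, on the scale of a p-value, were counted up to 0.05, and footprints carry a p-value of 0.01 in every row as deposited. The shorter list of each library was the main one. A region of replicate 1 took the highest overlapping height of replicate 2. Genes and starts came from GENCODE M21 (20807 coding genes on chromosomes 1 to 19), and sequence, repeat masking and chromosome lengths from GRCm38, within which all region ends lay. Density used bases other than N. Patterns (29) were searched on both strands of 200 bp around midpoints. Copies were 32-base words found elsewhere on the assembled chromosomes. Named were the 10 best-ranked regions, the 10 genes with most regions with ties, the longest chains, up to 3 genes per list with 2 or more regions, and the best-ranked region for some patterns, with no sequence from chromosome 18 or from regions with copies. Not all of these are printed. Showing 6 CTCF matches, and all regions of named list genes and Wnt7b, was chosen after their values were seen. The members and lists were chosen with earlier results of these data known. The functions were tested on simulated data. Tools were Python 3.11.15, pandas 2.3.3, numpy 2.4.6 and scipy 1.17.1.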

Additional observations from a re-analysis of the deposited data

How the results depend on the processing

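Of 70 values under alternatives, 25 stayed near the reported one, which means within 1.5 times for counts and densities, within 1 SD between libraries for heights and within the 95% interval for shares. The longer lists gave 9777 regions, 26.14 per Mb, median heights of 0.6914 and 0.8194, footprints in 88.29% and 90.29%, CTCF matches in 18.23%, open nearest promoters at 75.01% and neighbours within 10 kb at 52.62%. The stronger 50% of each list gave 2622 regions, 7.009 per Mb, 1.678 and 2.278, 99.85% and 99.66%, 35.24%, 58.42% and 28.30% in that order. Reciprocal overlap of 50% gave footprints in 98.46% and 98.65%, CTCF in 27.81%, open promoters at 62.27% and neighbours at 34.25%. Over 20 kb from every start there were 2960 regions, CTCF in 23.61% and neighbours at 36.89%, and up to 50 kb from a coding start CTCF in 27.47% and neighbours at 39.92%. Footprints present in both libraries lay in 90.43%. Looser and stricter CTCF patterns gave 32.14% and 13.03%. Open promoters were 41.00% with the nearest gene of any type and 67.18% within 500 bp, and neighbours within 5 kb 29.26%. Leaving out 1 replicate, and with it the overlap, gave 6210 to 8711 regions, 16.60 to 23.29 per Mb, CTCF in 19.31 to 23.00%, open promoters at 69.81 to 74.51% and neighbours at 42.38 to 52.41%. Replicate 1 alone then had a median height of 0.9868 and footprints in 94.48%, and replicate 2 alone 0.9122 and 91.13%. No paired analysis was possible because there was 1 group. Unknown read depth limits all of these values, since weak regions may be missed in either library.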
